A study of Mus musculus with 18 samples.

Results

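The genes described here encode the transport machinery and the gate of the primary cilium. They are a fixed list of 42 mouse genes: 10 subunits of the intraflagellar transport B (IFT-B) train, 4 of the IFT-A train, 3 transport motor subunits, 7 BBSome subunits, 2 BBS chaperonins, 4 ciliary GTPases and membrane cargo factors, 10 genes of the MKS module of the transition zone, and the 2 EvC zone genes Evc and Evc2. The members were listed by gene symbol, with earlier results of these data known, and all 42 were among the 23337 genes of the deposited count table. All 42 were also among the 13116 genes that passed the filter on low counts, with 23 to 619 reads per gene and library.

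The libraries were poly(A) RNA-seq from mouse embryonic stem cells differentiating toward heart. Every library came from the line TBX5-FTA on the A2Lox.cre background and was labelled untreated, so the series holds a time course and no perturbed group. Cells harvested on days 5, 6 and 7 (D5, D6, D7) are labelled as cardiac progenitor cells, and the immature cardiomyocytes are from days 8, 10 and 15 (D8, D10, D15). Each of the 6 days had 3 libraries, 18 in all, with total counts between 5257601 and 7122093. Neither the clonal origin of the line nor the number of cultures behind each day is stated in the labels. The p-values therefore reflect only how far the 3 libraries of a day lie apart, and that spread may be technical. The libraries of a day are called a, b and c in column order, which the labels tie to no replicate number. In bulk RNA, fewer cells of a type and less RNA per cell cannot be told apart.

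The primary cilium is a microtubule-based sensory projection that most vertebrate cells build from the mother centriole when they are not dividing, and it is where Hedgehog signals are received in mammals. Its proteins are carried out along the microtubules by IFT-B trains driven by kinesin-2 and carried back with IFT-A trains driven by dynein-2, while the BBSome takes membrane proteins out of the cilium. At the base, the MKS module of the transition zone holds a diffusion barrier in the membrane, and the EVC proteins form a zone just above it that relays Hedgehog signals. In the embryo the cilium is needed for left-right patterning of the heart and for its septation, and mutations of many of these genes cause Bardet-Biedl, Meckel, Joubert or Ellis-van Creveld syndrome.

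Between D5 and D15 the 42 genes did not move as a block. Of the 42, 24 (57.1%) differed at an adjusted p under 0.05 (edgeR quasi-likelihood test, Benjamini-Hochberg over all genes), 11 of them higher and 13 lower at D15, whereas 78.0% of all genes tested differed, 40.3% higher and 37.7% lower. The genes that rose most were Evc, of the EvC zone, and B9d2, Cc2d2a and Tctn3, of the MKS transition zone. The scaffold gene Rpgrip1l, also of the MKS transition zone, fell most. The train subunit gene Ift74 had the next largest fall. These 6 were the members with a fitted change of at least 2-fold, or 14.3% of the list, against 40.2% of all genes. The median absolute log2 fold change was 0.45 for the members and 0.78 for all genes, and the signed medians were -0.10 and 0.03. Levels are given as CPM (reads of a gene relative to the library's total, scaled by TMM factors). Of the called members, only Bbs9 had D5 and D15 libraries that overlapped in CPM. This adds no support to the calls, which rest on the same libraries, and the share over all genes was not counted. The D5 and D15 libraries of Tmem67, which was not called, did not overlap either.

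**Figure D1:**
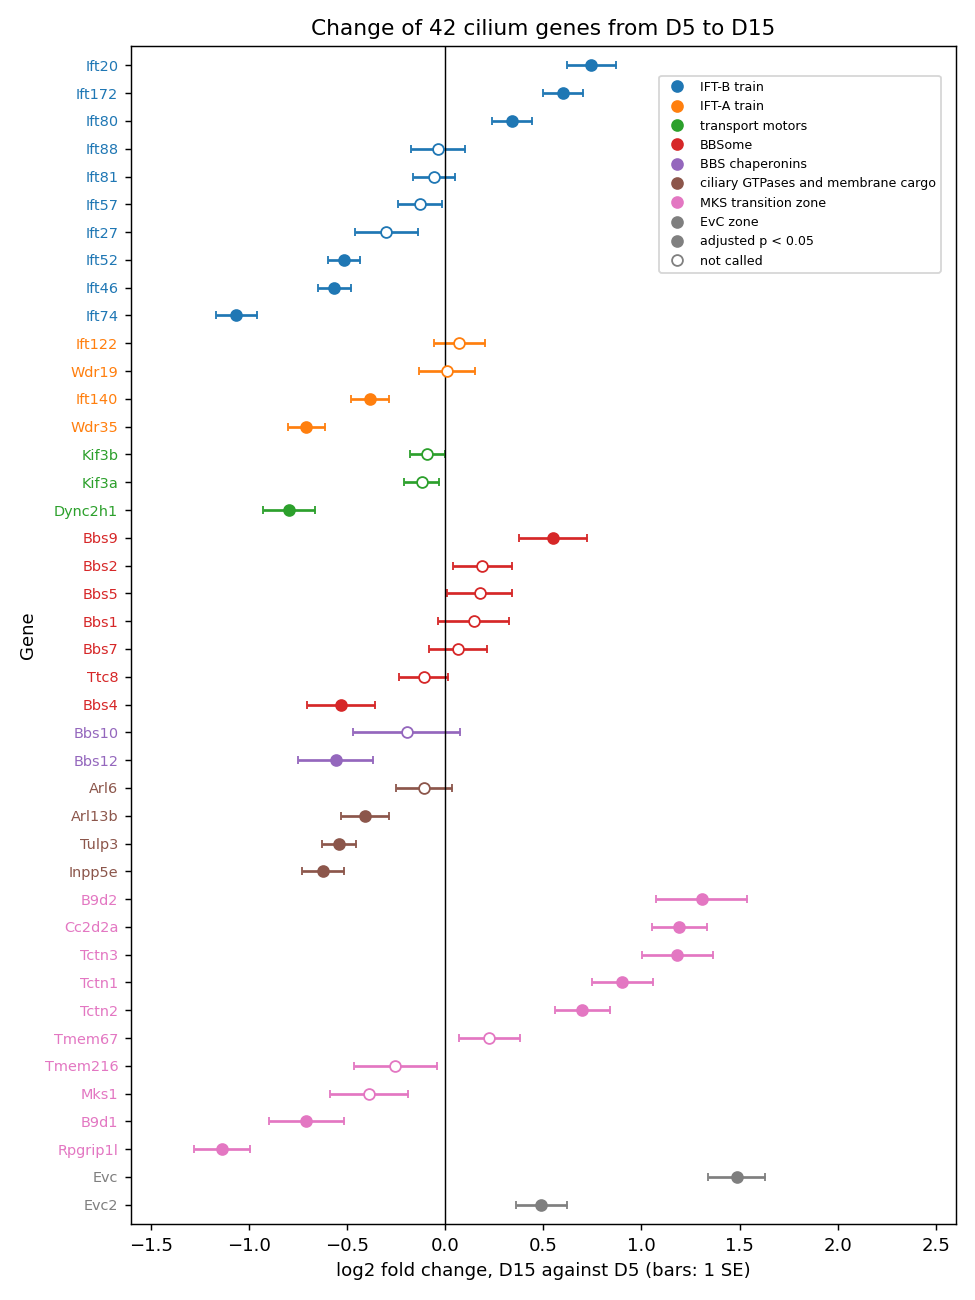
Log2 fold change of D15 against D5 (x axis) for each of the 42 genes (y axis), coloured by role, with bars of 1 standard error; filled points passed an adjusted p of 0.05. Evc lies farthest to the right at 1.48 and Rpgrip1l farthest to the left at -1.14, and the MKS transition zone genes spread over both sides of 0.

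Over the whole course, 35 of the 42 genes (83.3%) varied between days by the F test, beside 88.9% of all genes. The 7 that did not pass were Ift81, Ift122, Bbs5, Bbs10, Arl6, Tmem216 and Mks1, with adjusted p from 0.0627 to 0.695. The largest F values belonged to Evc (40.7), Ift74 (31.2), Rpgrip1l (30.4), Cc2d2a (22.6) and Ttc8 (17.4). The highest day mean was 3.12 times the lowest for Rpgrip1l and 3.11 times for Evc, followed by B9d2 and Cc2d2a (2.48 each) and Bbs9 (2.35). The members peaked on different days: the highest day mean fell on D5 for 7 genes, D6 for 9, D7 for 8, D8 for 4, D10 for 10 and D15 for 4. Per kilobase of exon, and averaged over the days, the most abundant members were Ift52 (24.0 CPM per kb), Kif3a (19.4) and Ift74 (18.8). The least abundant by this measure were Rpgrip1l (1.60), Bbs1 (1.81) and Tctn1 (1.97). The exon length joins all annotated transcripts of a gene and can exceed that of a single mRNA, so the ranking depends on the annotation. By CPM alone the lowest members were B9d2 (day means 3.69 to 9.17 CPM) and Bbs10 (6.29 to 8.36 CPM).

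**Figure D2:**
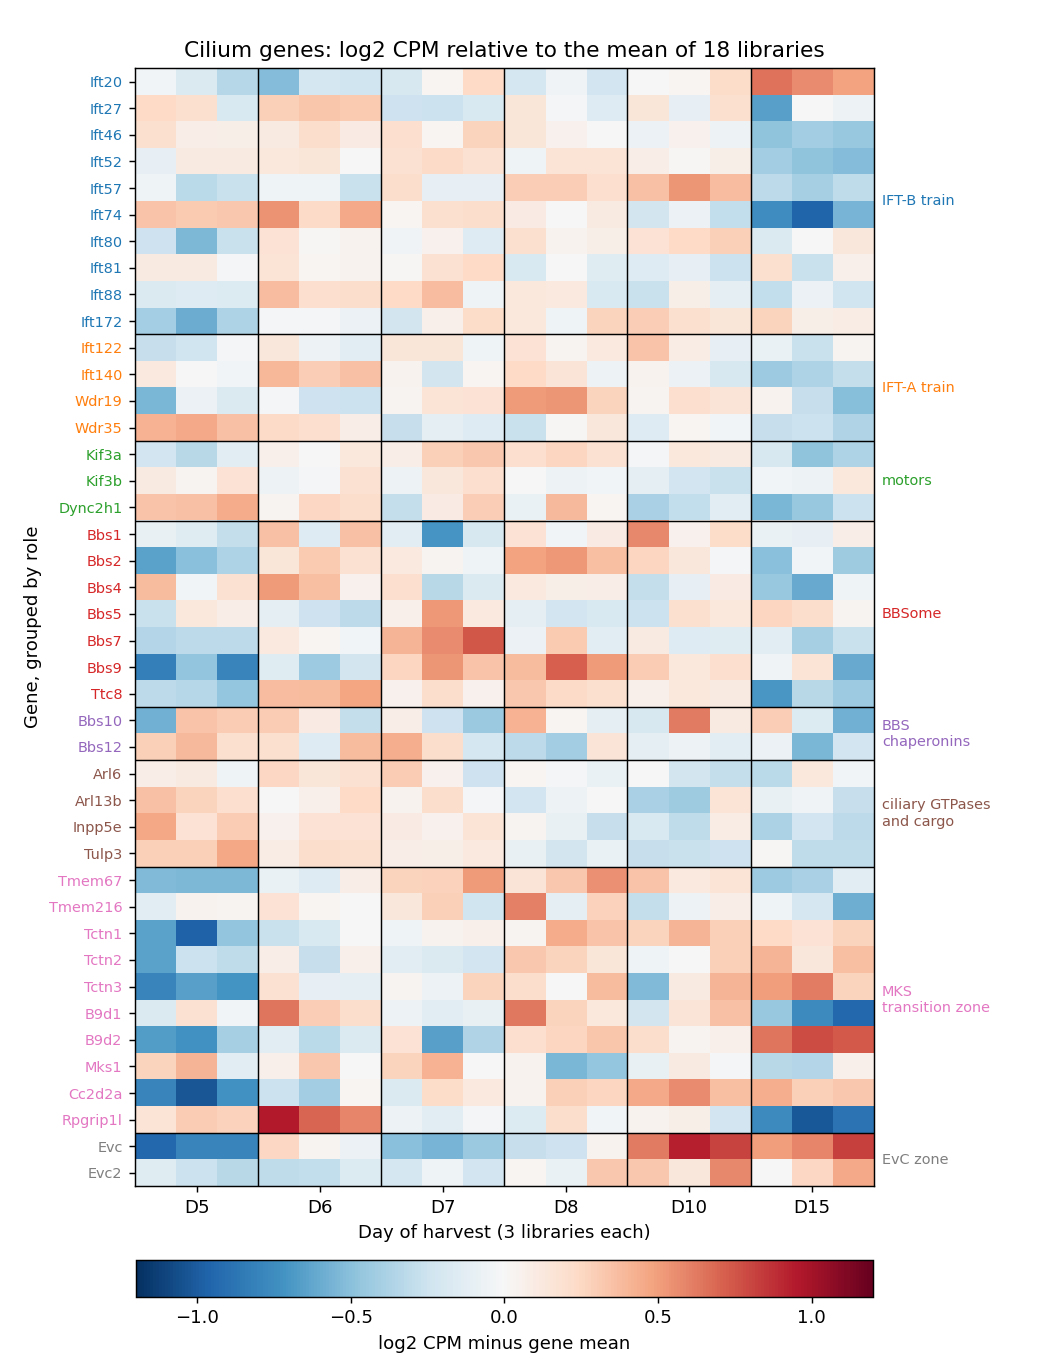
Log2 CPM minus the gene's mean over the 18 libraries (colour) for the 42 genes (rows, by role) in each library (columns, by day). The lower rows turn from blue at D5 to red at D10 and D15 for Evc, Cc2d2a and Tctn1. Tctn3 is blue at D5 and red at D15 but uneven at D10 (11.7, 18.1 and 22.4 CPM). Rpgrip1l is red at D6 and blue at D15.

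Many ciliary genes carry an X-box in their promoters, an inverted repeat bound by the RFX transcription factors. RefSeq promoters (assembly GRCm38.p6, 250 bases before to 50 after the transcription start) were at hand for 38 of the 42 genes, all but Ift80, Ift81, Ift122 and Tmem67. They were searched for the arm GTTNCC, a gap of 1 to 3 bases and the arm GGNAAC, a pattern that reads the same on both strands, with at most 1 mismatch in the 10 fixed bases. A match was found for 13 of the 38 genes (34.2%), and for 1479 of all 27025 genes with a promoter (5.47%), or 1588 of all 32851 promoters (4.83%). With no mismatch allowed, 5 of the 38 genes matched (13.2%), against 0.903% of all genes. No other motif was searched. The matches lay in 8 of the 9 MKS transition zone promoters (Tmem216, Tctn1, Tctn2, Tctn3, B9d1, B9d2, Mks1, Cc2d2a; Rpgrip1l had none), in 3 of 7 BBSome promoters (Bbs1, Bbs4, Bbs7), in 2 of 8 IFT-B promoters (Ift52, Ift57) and in none of the other groups. These are matches of letters, not measured binding sites.

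The promoters below are the 5 with a match without mismatch and B9d1, whose match has 1, chosen by fewest mismatches and then by name. Each is printed 5′ to 3′ on the strand of its gene, with the match in capitals.
Bbs7, chr3:36613340-36613639 (minus strand): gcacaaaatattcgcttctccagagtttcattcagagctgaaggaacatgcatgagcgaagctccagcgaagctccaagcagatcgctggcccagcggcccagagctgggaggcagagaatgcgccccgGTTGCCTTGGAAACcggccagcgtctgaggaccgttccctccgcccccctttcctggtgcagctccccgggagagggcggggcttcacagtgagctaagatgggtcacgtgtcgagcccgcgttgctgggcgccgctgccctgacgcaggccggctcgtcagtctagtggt
Ift57, chr16:49699044-49699343 (plus strand): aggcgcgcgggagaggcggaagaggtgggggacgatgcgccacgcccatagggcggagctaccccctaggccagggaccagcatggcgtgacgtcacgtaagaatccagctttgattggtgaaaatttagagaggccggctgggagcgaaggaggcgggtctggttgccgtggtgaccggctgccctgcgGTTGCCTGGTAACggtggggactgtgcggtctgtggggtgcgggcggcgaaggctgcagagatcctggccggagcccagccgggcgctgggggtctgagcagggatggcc
Mks1, chr11:87852965-87853264 (plus strand): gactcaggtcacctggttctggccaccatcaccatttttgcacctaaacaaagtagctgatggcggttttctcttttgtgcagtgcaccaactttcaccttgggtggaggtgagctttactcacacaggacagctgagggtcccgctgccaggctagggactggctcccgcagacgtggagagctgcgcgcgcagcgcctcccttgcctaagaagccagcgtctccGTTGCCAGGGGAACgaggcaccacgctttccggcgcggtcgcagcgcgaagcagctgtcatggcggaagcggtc
Tctn1, chr5:122264411-122264710 (minus strand): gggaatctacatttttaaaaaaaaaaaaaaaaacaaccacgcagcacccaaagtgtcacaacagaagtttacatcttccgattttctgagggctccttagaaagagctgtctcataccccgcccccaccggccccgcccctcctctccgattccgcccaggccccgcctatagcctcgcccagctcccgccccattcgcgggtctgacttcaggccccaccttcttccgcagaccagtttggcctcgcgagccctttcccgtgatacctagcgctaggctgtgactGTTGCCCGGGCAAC
Tctn3, chr19:40612182-40612481 (minus strand): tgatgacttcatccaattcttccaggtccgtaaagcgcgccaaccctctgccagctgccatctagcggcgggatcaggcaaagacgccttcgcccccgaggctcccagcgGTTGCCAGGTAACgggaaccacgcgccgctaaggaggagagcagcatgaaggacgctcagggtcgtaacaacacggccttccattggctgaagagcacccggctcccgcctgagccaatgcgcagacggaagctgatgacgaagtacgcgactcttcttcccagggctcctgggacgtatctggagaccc
B9d1, chr11:61504894-61505193 (plus strand): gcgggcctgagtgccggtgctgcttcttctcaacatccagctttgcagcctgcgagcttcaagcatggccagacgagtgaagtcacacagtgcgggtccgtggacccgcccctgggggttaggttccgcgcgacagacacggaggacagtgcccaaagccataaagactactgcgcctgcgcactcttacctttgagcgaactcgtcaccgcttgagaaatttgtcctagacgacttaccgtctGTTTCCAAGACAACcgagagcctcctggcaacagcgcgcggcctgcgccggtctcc

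In these sequences the match begins at base -121 in Bbs7, -60 in Ift57, -24 in Mks1 and -140 in Tctn3, counted from the transcription start as base 1. It begins at base 37, downstream of the start, in Tctn1 and at base -6, across the start, in B9d1. The gap between the arms was 1 base in 4 and 2 bases in 9 of the 13 matches. Genes with a match did not share a direction: from D5 to D15, 5 of the 13 rose (38.5%) and 3 fell (23.1%). Among the 25 without a match 5 rose (20%) and 10 fell (40%), beside 40.3% and 37.7% of all genes tested. The 5 that rose with a match were all MKS transition zone genes, so match and role were not separated. Of the genes printed, Tctn1 and Tctn3 rose, B9d1 fell, and Bbs7, Ift57 and Mks1 did not pass.

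**Figure D3:**
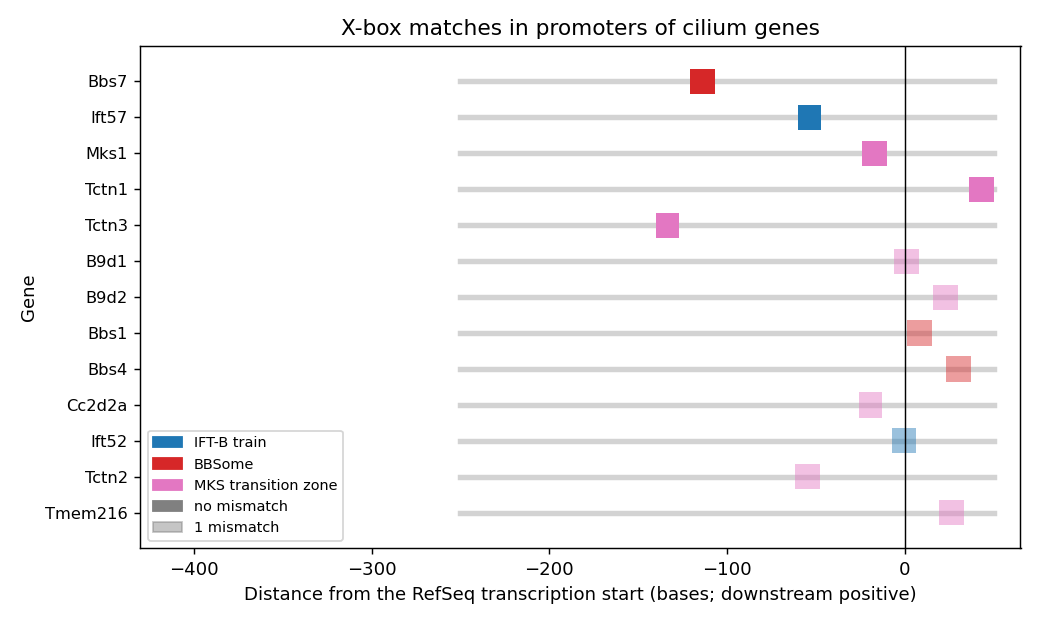
Position of the X-box match in each of 13 promoters (x axis, bases from the RefSeq transcription start; grey bars are the searched windows), coloured by role, in full colour for no mismatch and pale for 1. The first bases lie between -140 and 37, and 8 of the 13 genes belong to the MKS transition zone.

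The RFX factors themselves were measured in the same libraries. Rfx3, a factor known to drive ciliary genes, went from 39.3 CPM at D5 and 46.6 CPM at D6 to 14.1 CPM at D15 (-1.48 ± 0.12, adjusted p = 3.2e-12), and Rfx7 from 169 to 60.4 CPM (-1.48 ± 0.08, adjusted p = 8e-16). Of the list of 10 RFX and other cilium transcription factors, 5 passed the filter on low counts, and 2 of these rose and 3 fell. From D5 to D15 their median log2 fold change was -0.57 and their median absolute change 1.44. The list thus had no shared direction. Foxj1, the factor of motile cilia, had 1 to 12 reads per day over 3 libraries and was below the filter. Genes of motile cilia were near 0 throughout: only 4 of 15 passed the filter (1 rose and 1 fell), and the summed level of the 15 stayed between 10.2 and 18.1 CPM in every library.

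The IFT-B genes split. Of the 10, 3 rose from D5 to D15 (Ift20, Ift80, Ift172), 3 fell (Ift46, Ift52, Ift74) and 4 did not pass the test, with a median log2 fold change of -0.09. Ift74, which with Ift81 forms the tubulin-binding module of the train (mm10 chr4:94614491-94693229, plus strand), read 61.1, 59.8 and 60.1 CPM at D5 and 28.8, 24.8 and 32.8 CPM at D15. Its mean went from 60.4 ± 0.675 to 28.8 ± 3.996 CPM (SD, n = 3), a log2 fold change of -1.06 ± 0.10 (SE, adjusted p = 1.95e-10). The level was still 64.3 ± 7.04 CPM at D6, then 53.3 ± 3.80, 50.6 ± 1.99 and 42.2 ± 3.30 CPM at D7, D8 and D10, and every D15 library lay below every earlier one. Its partner Ift81 read 38.8 ± 1.83 CPM at D5 and 37.2 ± 5.81 CPM at D15, and did not pass the test (-0.06, adjusted p = 0.635).

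Ift20, the subunit that also sits at the Golgi and helps to sort membrane proteins to the cilium (chr11:78536361-78541737, plus strand), went the other way. It read 26.3, 23.9 and 21.3 CPM at D5 and 42.4, 39.9 and 37.6 CPM at D15, and all 3 D15 libraries were higher than any other of the series. The change was 0.74 ± 0.12 on the log2 scale (adjusted p = 3.37e-06). Ift172, a large peripheral subunit that binds membranes, rose from 42.4 ± 3.47 to 64.4 ± 4.94 CPM (0.60 ± 0.10, adjusted p = 5.79e-06) and had reached 56.9 ± 1.38 CPM by D6. The core subunits Ift46 (68.7 to 46.4 CPM, -0.56, adjusted p = 5.57e-07) and Ift52 (68.3 to 47.8 CPM, -0.51, adjusted p = 2.37e-06) fell, and most of their fall came after D10, where they still averaged 62.4 and 68.9 CPM.

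Ift57, another peripheral subunit (chr16:49699233-49765126, plus strand), shows what a comparison of the first and the last day leaves out. It was 34.3, 28.4 and 29.6 CPM at D5, rose through 35.9 ± 4.53 at D7 and 42.7 ± 1.54 at D8 to 45.3, 51.5 and 46.0 CPM at D10, and was back at 28.6, 26.9 and 28.8 CPM at D15. D15 against D5 did not pass the test (-0.13 ± 0.11, adjusted p = 0.297), while D15 against D10 was -0.76 ± 0.11 (adjusted p = 1.35e-06). The remaining IFT-B genes were Ift80 (0.34, adjusted p = 0.00308), which rose, and Ift27 (-0.30, adjusted p = 0.0904) and Ift88 (-0.04, adjusted p = 0.816), which did not pass. Ift27, a small GTPase tied to BBSome-dependent exit, passed in 2 of the 18 fits that left out a library.

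Of the IFT-A genes, 2 of 4 fell and none rose. Wdr35, a subunit needed for entry of membrane proteins (chr12:8973892-9028847, plus strand), read 69.6, 71.1 and 66.3 CPM at D5 and 42.9, 43.4 and 40.5 CPM at D15. The groups lay far apart, and the mean fell from 69.0 ± 2.49 to 42.3 ± 1.56 CPM (-0.71 ± 0.09, adjusted p = 9.63e-08). Most of this drop was complete by D7, at 46.0 ± 2.84 CPM. Ift140, a core subunit, fell from 50.9 ± 2.81 to 39.0 ± 2.04 CPM (-0.38, adjusted p = 0.000817) after a higher D6 mean of 63.8 ± 2.25 CPM. Wdr19 (0.01, adjusted p = 0.952) and Ift122 (0.07, adjusted p = 0.613), both also core subunits, did not pass, although Wdr19 averaged 35.0 ± 3.41 CPM at D8 between 21.7 ± 3.65 at D5 and 21.9 ± 4.24 at D15.

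Among the motor genes, the retrograde motor fell and the anterograde motor did not pass the test. Dync2h1, the dynein-2 heavy chain (chr9:6928503-7184446, minus strand), read 47.9, 48.1 and 51.4 CPM at D5 and 25.8, 27.5 and 31.5 CPM at D15 (-0.80 ± 0.13, adjusted p = 3.33e-06). The D7 and D8 libraries spread widely, from 31.0 to 49.5 CPM, and the D10 mean was 31.3 ± 2.73 CPM. Kif3a and Kif3b, the motor subunits of kinesin-2, changed by -0.12 (adjusted p = 0.219) and -0.09 (adjusted p = 0.357). Kif3a still moved within the course: 58.8 ± 4.24 CPM at D5, 80.8 ± 7.27 at D7 and 54.1 ± 5.51 at D15. Whether Dync2h1 and the kinesin-2 genes differ in their change was not tested.

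The BBSome genes differed in when they were highest. Their summed level, which was not tested, was 101 to 103 CPM at D5, 138 to 149.7 CPM at D8 and 103 to 111 CPM at D15. Bbs2 and Bbs9 were also highest at D8, whereas Bbs7 was highest at D7 and Ttc8 at D6. Bbs5 was lower at D8 (11.9 CPM) than at D5 (13.4 CPM) or D15 (15.1 CPM), and Bbs1 was lowest at D7 (10.9 CPM). From D5 to D15, 1 of the 7 rose (Bbs9), 1 fell (Bbs4, from 18.7 to 12.9 CPM, -0.53, adjusted p = 0.00645) and 5 did not pass. Ttc8, the subunit also called BBS8 (chr12:98920574-98983238, plus strand), read 19.4, 19.0 and 17.5 CPM at D5, then 31.0, 31.4 and 33.4 CPM at D6, and 14.8, 19.1 and 17.8 CPM at D15. Its D6 libraries were all above all D5 libraries (0.78 ± 0.12, adjusted p = 3.81e-06), and the D5 and D15 libraries overlapped (-0.11, adjusted p = 0.43).

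Bbs2, which pairs with Bbs7 in the complex (chr8:94067954-94098928, minus strand), was 11.2, 12.3 and 13.5 CPM at D5, 24.4, 25.1 and 22.4 CPM at D8 and 12.4, 17.0 and 12.96 CPM at D15. Bbs7 (chr3:36573142-36613477, minus strand) peaked a harvest earlier, with 15.4, 15.8 and 15.8 CPM at D5, 26.1, 29.0 and 32.9 CPM at D7 and 18, 14.9 and 16.3 CPM at D15. Neither passed the test of D15 against D5 (0.19, adjusted p = 0.249, and 0.06, adjusted p = 0.692). Bbs9, the scaffold subunit (chr9:22475715-22888280, plus strand), read 10.3, 13.1 and 10.5 CPM at D5, 23.7, 30.0 and 26.0 CPM at D8 and 17.7, 20.4 and 12 CPM at D15. Its D15 libraries were spread and overlapped D5, and the rise (0.55 ± 0.17, adjusted p = 0.00478) no longer passed without library D15b (0.38, adjusted p = 0.0631). Bbs1 (0.14, adjusted p = 0.468) and Bbs5 (0.18, adjusted p = 0.331) did not pass.

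The 2 chaperonin-like proteins help to assemble the BBSome. Bbs12 (chr3:37312554-37321453, plus strand) read 15.1, 16.2 and 14.2 CPM at D5 and 11.8, 8.51 and 10.6 CPM at D15, with no overlap (-0.56 ± 0.19, adjusted p = 0.00908). Without library D15b, its lowest, the change was -0.44 (adjusted p = 0.06). Bbs10 was among the members with the lowest CPM, at 7.58 ± 2.41 CPM at D5 and 6.67 ± 2.03 CPM at D15, and did not pass (-0.20, adjusted p = 0.516).

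Of the 4 ciliary GTPases and membrane cargo factors, 3 fell and none rose, with a median log2 fold change of -0.48. Tulp3, which carries receptors into the cilium together with IFT-A (chr6:128321161-128355851, minus strand), read 74.2, 74.6 and 84.4 CPM at D5 and 61.8, 49.4 and 49.3 CPM at D15. All D15 libraries were below all D5 libraries, and the change was -0.54 ± 0.09 (adjusted p = 2.22e-06). The D6, D7, D8 and D10 means were 68.4, 64.8, 55.8 and 50.8 CPM, each below the one before. Arl13b, a membrane GTPase of the cilium that activates Arl3, fell from 47.3 ± 2.41 to 35.7 ± 2.95 CPM (-0.41, adjusted p = 0.00327). Inpp5e, the lipid phosphatase that Arl13b helps to retain in the cilium, fell from 52.5 ± 5.21 to 34.1 ± 1.84 CPM (-0.62, adjusted p = 6e-06). Its exons overlap the gene Pmpca on the opposite strand over 20.3% of their length, so its counts may include reads of Pmpca and are uncertain. Arl6, the GTPase that recruits the BBSome to membranes, did not pass (-0.11, adjusted p = 0.495).

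The MKS transition zone genes held most of the larger rises and the largest fall. Of the 10, 5 rose (Tctn1, Tctn2, Tctn3, B9d2, Cc2d2a), 2 fell (B9d1, Rpgrip1l) and 3 did not pass (Tmem67, Tmem216, Mks1), with a median log2 fold change of 0.46. Cc2d2a, a coiled-coil and C2 domain protein of the barrier (chr5:43662346-43740972, plus strand), read 13.8, 11.7 and 14.5 CPM at D5 and 32.5, 29.2 and 29.9 CPM at D15. It was already between 17.9 and 24.4 CPM at D6 and peaked at 33.1 ± 2.42 CPM at D10. The groups did not overlap, and the change was 1.19 ± 0.14 (adjusted p = 7.02e-09).

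The 3 tectonic genes, whose products are secreted or membrane-bound proteins of the zone, all rose. Tctn3 (chr19:40596446-40612233, minus strand) went from 9.75, 10.8 and 10.2 CPM at D5 to 23.8, 25.9 and 20.3 CPM at D15 (1.18 ± 0.18, adjusted p = 9.27e-07). Tctn2 (chr5:124598749-124627738, plus strand) went from 13.4, 17.5 and 16.9 CPM to 27.7, 23.0 and 26.9 CPM (0.70 ± 0.14, adjusted p = 4.63e-05). Tctn1 (chr5:122237848-122264460, minus strand) went from 10.2, 8.11 and 11.5 CPM to 18.7, 17.9 and 19.0 CPM (0.90 ± 0.15, adjusted p = 5.42e-06). In each of the 3 genes every D15 library exceeded every D5 library. The Tctn1 counts are uncertain, since 25.5% of its exon length overlaps Hvcn1 and Gm15481 on the opposite strand and 76.1% of its 50-base exon stretches were unique.

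The B9 domain genes, whose products form a complex with Mks1 in the zone, went in opposite directions. B9d2 (chr7:25680780-25686558, plus strand), the member with the lowest CPM at D5, rose from 3.49, 3.35 and 4.23 CPM to 8.65, 9.57 and 9.28 CPM (1.31 ± 0.23, adjusted p = 8.89e-06). B9d1 (chr11:61505144-61512931, plus strand) fell from 12.2, 15.7 and 13.5 CPM to 10.1, 8.15 and 7.20 CPM (-0.71 ± 0.19, adjusted p = 0.00142), after means of 18.2 ± 2.96 CPM at D6 and 17.7 ± 3.27 CPM at D8. The D5 and D15 libraries overlapped in neither gene. Mks1 read 11.97 ± 2.20 CPM at D5 and 9.11 ± 1.54 CPM at D15 and did not pass (-0.39 ± 0.20, adjusted p = 0.0748), though it passed in 2 of the 18 fits that left out a library.

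Rpgrip1l, a large scaffold that links the MKS module to the other module of the zone (chr8:91217030-91313262, minus strand), had the largest ratio of highest to lowest day mean among the members. It read 24.9, 27.5 and 26.9 CPM at D5, rose to 43.1, 36.0 and 33.4 CPM at D6, stood at 21.2 ± 0.825, 22.4 ± 2.98 and 21.7 ± 2.40 CPM at D7, D8 and D10, and ended at 13.1, 10.99 and 12 CPM at D15. The D6 libraries were above all others and the D15 libraries below all others. D15 against D5 was -1.14 ± 0.14 (adjusted p = 2.21e-08). Tmem67, the receptor-like membrane protein meckelin, went from 11.2 CPM at D5 to 20.7 CPM at D7 and D8 and 13.04 CPM at D15 (D15 against D5 0.22, adjusted p = 0.188). Tmem216, a small membrane protein, stayed between day means of 7.80 and 11.4 CPM (-0.25, adjusted p = 0.271).

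**Figure D4:**
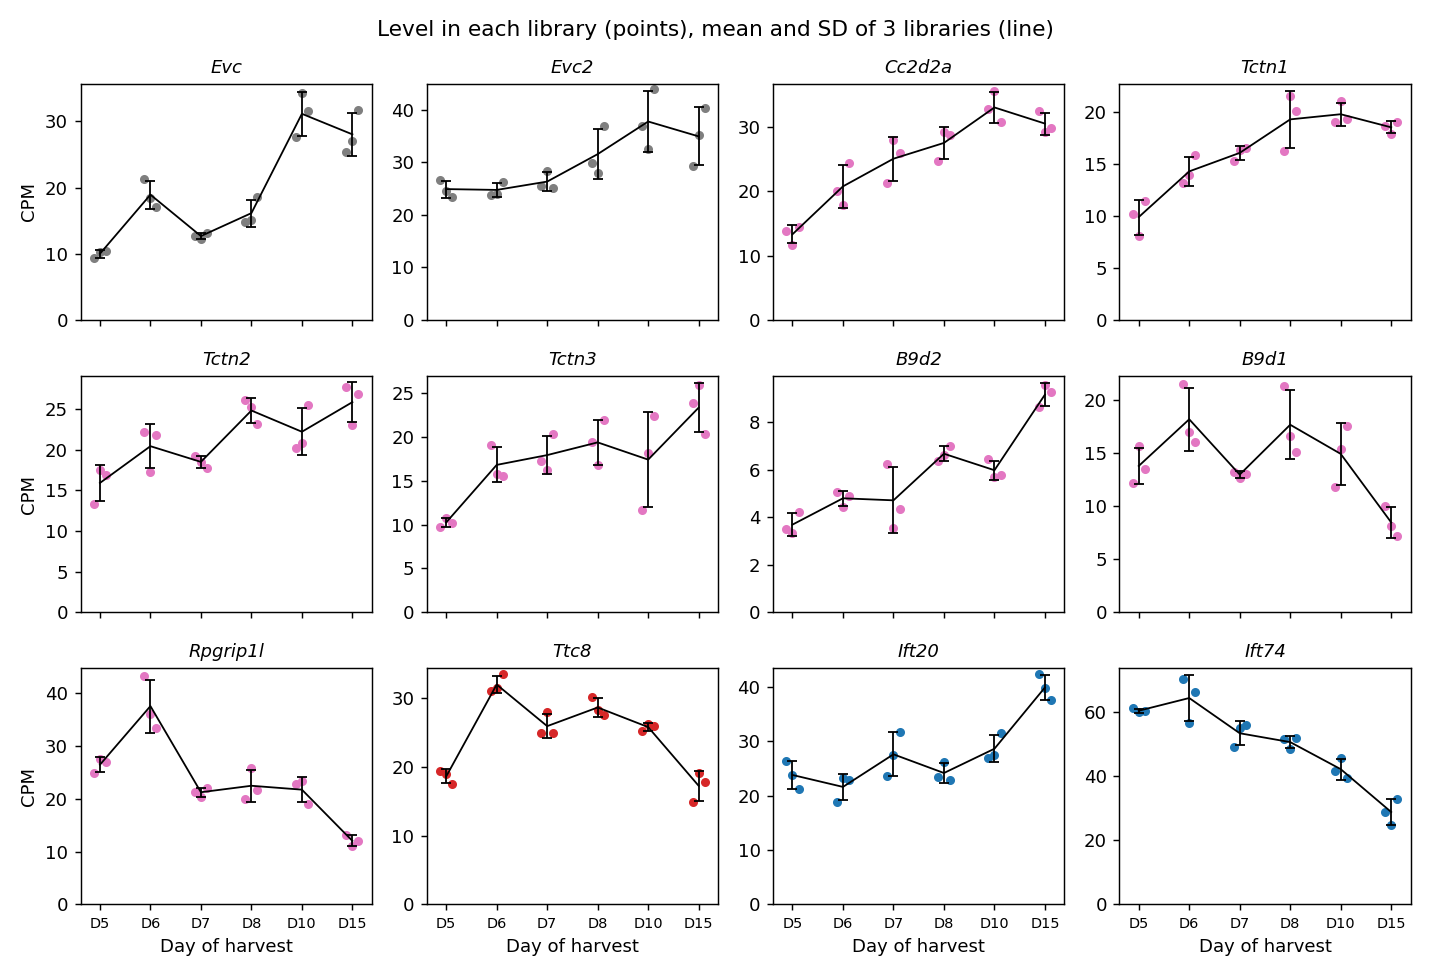
CPM (y axis, from 0) by day of harvest (x axis) for 12 of the genes; points are libraries, and the line and bars are the mean and SD of 3 libraries. Evc has a first rise at D6 and a larger one at D10, Ttc8 and Rpgrip1l are highest at D6, and Ift20 and B9d2 are highest at D15.

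Evc and Evc2 encode partner proteins of the EvC zone, and their genes lie head to head on chromosome 5. Evc (mm10 chr5:37289098-37336894, minus strand) and Evc2 (chr5:37338499-37425055, plus strand) start 1605 bp apart. Evc2 was described after its values were seen, because it is the neighbour of Evc. Evc read 9.31, 10.3 and 10.4 CPM at D5, 21.3, 18.4 and 17.1 CPM at D6, 12.7, 12.2 and 13.2 CPM at D7, 14.8, 15.1 and 18.5 CPM at D8, 27.6, 34.2 and 31.5 CPM at D10 and 25.4, 26.9 and 31.7 CPM at D15. The level thus went up, down and up again, with no overlap between D5 and D15 (10.01 ± 0.600 to 28.0 ± 3.27 CPM, 1.48 ± 0.14, adjusted p = 1.77e-10).

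Evc2 rose less and without the D6 step. It read 26.6, 24.6 and 23.5 CPM at D5, means of 24.7 ± 1.37, 26.3 ± 1.80, 31.5 ± 4.68 and 37.7 ± 5.77 CPM at the next 4 harvests, and 29.3, 35.1 and 40.3 CPM at D15 (0.49 ± 0.13, adjusted p = 0.0013). The log2 ratio of Evc to Evc2 within a library therefore differed between days: it was lower at D5 (-1.31 ± 0.178), D7 (-1.05 ± 0.150) and D8 (-0.96 ± 0.0695), and higher at D6 (-0.39 ± 0.227), D10 (-0.27 ± 0.303) and D15 (-0.31 ± 0.0936; SD, n = 3). These ratios are given as a description, with no test.

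The steps between neighbouring harvests place these changes in time. From D5 to D6, 16 of the 42 genes (38.1%) changed, beside 34.6% of all genes, and 15 of the 16 rose (35.7% of the members, 18.2% of all genes). These 15 included 6 of the 10 MKS genes (Cc2d2a, Rpgrip1l, Tctn1, Tctn2, Tctn3, Tmem67), 3 BBSome genes (Bbs2, Bbs7, Ttc8), 3 IFT-B genes (Ift80, Ift88, Ift172), Ift140, Kif3a and Evc. The largest were Evc (0.92 ± 0.15, adjusted p = 1.45e-05), Ttc8 (0.78) and Bbs2 (0.71 ± 0.14, adjusted p = 0.00023), closely followed by Tctn3 (0.71 ± 0.19, adjusted p = 0.00331). Wdr35 fell (-0.23 ± 0.09, adjusted p = 0.0477), and this call was lost under DESeq2 and whichever D5 library was left out. The calls of Bbs7 (adjusted p = 0.0482) and Tctn2 (adjusted p = 0.0486) were as close to the threshold and were also lost under DESeq2. Of 25 alternatives, the call was lost in 17 for Tctn2, 15 for Wdr35 and 11 for Bbs7.

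From D6 to D7, 14 of the 42 genes (33.3%) changed, beside 30.4% of all genes, 5 up and 9 down. Rpgrip1l fell below its D5 level (-0.82 ± 0.13, adjusted p = 1.05e-05), Evc fell (-0.58 ± 0.15, adjusted p = 0.00293) but kept every D7 library above every D5 library, and Bbs9 rose (0.64 ± 0.16, adjusted p = 0.00283). The other rises were Bbs7, Bbs5, Tmem67 and Ift20 (0.35 to 0.54), and the other falls were Ift27, Bbs1, B9d1, Ift140, Wdr35, Ttc8 and Ift74 (-0.27 to -0.54). With DESeq2 8 of the 42 passed, beside 27.5% of all genes with an adjusted p, and the calls lost were those of B9d1, Bbs5, Ift20, Ift74, Tmem67 and Ttc8. Without library D6a 8 passed, and without D7b 9, while the count over all genes ranged from 3237 to 4143 when each library was left out.

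At the next 2 steps few members passed the test. Their median absolute log2 fold change was 0.18 between D7 and D8 (all genes 0.21) and 0.15 between D8 and D10 (all genes 0.23), against 0.16 at the D6 to D7 step (all genes 0.24). From D7 to D8, 3 of the 42 changed (7.14%, beside 24.2% of all genes): Bbs7 fell (-0.52 ± 0.13, adjusted p = 0.00445), and Tctn2 (0.43 ± 0.14, adjusted p = 0.0235) and Bbs2 (0.42 ± 0.14, adjusted p = 0.0235) rose. The calls of Tctn2 and Bbs2 were lost without D7b, D7c, D8a or D8b, with adjusted p from 0.0594 to 0.0907. From D8 to D10, 2 changed (4.76%, beside 31.2% of all genes): Evc rose (0.95 ± 0.14, adjusted p = 3.49e-06) and Dync2h1 fell (-0.40 ± 0.13, adjusted p = 0.0231). The Dync2h1 call was lost without D8b (-0.25, adjusted p = 0.211), D10a (adjusted p = 0.102) or D10b (adjusted p = 0.0655). The counts also depended on single libraries. From D7 to D8 the count was 7 without library D7a, 5 without D8c and 1 without D7b or D8b, and from D8 to D10 it was 4 without D8c and 1 without D8b or D10a. The counts over all genes moved as well when a library was left out, from 2326 to 3350 for D7 to D8 and 3155 to 4261 for D8 to D10.

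From D10 to D15, 17 of the 42 changed (40.5%, beside 50.8% of all genes), 4 up (9.52%, beside 26.4%) and 13 down (31.0%, beside 24.4%). The falls were led by Rpgrip1l (-0.86 ± 0.15, adjusted p = 1.44e-05), B9d1 (-0.81 ± 0.19, adjusted p = 0.000886) and Ift57 (-0.76). They also took in Ift46, Ift52, Ift74, Ift140, Wdr19, Wdr35, Kif3a, Bbs2, Ttc8 and Tmem67. The genes that rose were B9d2 (0.61), Ift20 (0.48), Tctn3 (0.44) and Kif3b (0.22). Without library D10a the change of Tctn3 was 0.20 (adjusted p = 0.333), and its call was lost in 7 of 25 alternatives, DESeq2 among them. The calls of Wdr35, B9d2 and Bbs2 were lost in 9, 4 and 3 of 25, those of B9d2 and Bbs2 only when a library was left out (B9d2 without D10b, D10c, D15b or D15c; Bbs2 without D10a, D15a or D15c).

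**Figure D5:**
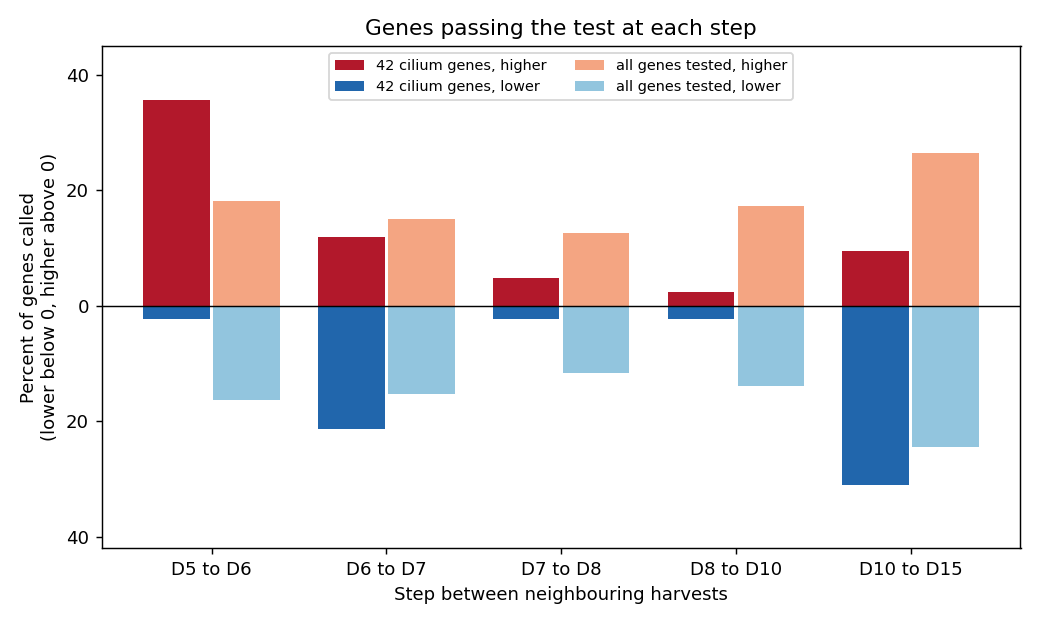
Percent of genes that passed an adjusted p of 0.05 at each step between harvests (x axis), higher above 0 and lower below 0, for the 42 cilium genes (dark) and all 13116 genes tested (light). At D5 to D6 the dark bar above 0 reaches 35.7%, and at D7 to D8 and D8 to D10 the dark bars stay under 5% in each direction.

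Between the labelled stages, the mean of D8, D10 and D15 differed from that of D5, D6 and D7 in 30 of the 42 genes (71.4%, beside 77.1% of all genes), 13 higher (31.0%, beside 39.3%) and 17 lower (40.5%, beside 37.8%). The largest rises were Evc (0.85, adjusted p = 1.86e-10), B9d2 (0.71) and Cc2d2a (0.67, adjusted p = 7.42e-09), and the largest falls were Rpgrip1l (-0.61) and Ift74 (-0.58, adjusted p = 3.3e-10). The median absolute log2 fold change was 0.24 for the members and 0.45 for all genes. With D15 left out of the later stage, a comparison added after the data were seen, 15 were higher and 12 lower, beside 35.3% and 33.7% of all genes. There the calls of Bbs4, Bbs7, Ift20, Ift52, Ift88 and Ift140 were lost, and Bbs1, Bbs2 and Tmem67 passed. The Bbs7 call (-0.18) was lost in 19 of 25 alternatives, including DESeq2 (adjusted p = 0.119) and both other scalings, and Ift20 in that comparison alone (0.12, adjusted p = 0.208).

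Other genes of the same machinery, taken from further fixed lists, also moved in both directions. Of 17 other intraflagellar transport genes tested, 5 rose and 3 fell from D5 to D15 (median 0.07): the dynein light chain gene Dynll1 fell (-0.71), as did the small GTPase gene Rabl2 (-1.51), and the train subunit gene Ttc30b rose (2.11). Of 10 other BBSome and cargo genes, 4 rose and 3 fell (median 0.10), with Arl2bp (-1.04) and Rab23 (-0.76) down and Pde6d, a carrier of lipid-modified proteins, up (0.64). Of 15 other transition zone genes, 1 rose and 5 fell (median -0.04), led by Iqcb1 (-1.33), Rpgr (-1.14) and Ahi1 (-1.03). Of all genes tested, 40.3% rose and 37.7% fell, with a median of 0.03.

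Genes of the base and of cilium removal mostly fell. From D5 to D15, 37.7% of all genes tested fell and 40.3% rose. Of 11 basal body and distal appendage genes, 9 fell (81.8%) and 1 rose (median -0.72). The falls included Odf2 (-0.86), Pcm1 (-0.73) and Cep164 (-0.72). Of 10 genes that disassemble or suppress the cilium, 9 fell (median -1.17), including the mitotic kinase gene Aurka (101 to 41.3 CPM, -1.29) and the centriole cap gene Ccp110 (-1.31), while Nedd9, a scaffold that activates Aurora A, rose from 36.1 to 120.5 CPM (1.74). Of 10 Hedgehog signal transducers, 3 rose and 6 fell (median -0.45): Gli2, a transcription factor of the pathway, fell (-1.56), whereas Boc (1.82) and Gas1 (2.69), which encode co-receptors, rose.

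Markers of cell types and of cell division moved strongly over the same days. All 8 cardiomyocyte markers rose from D5 to D15, with a summed level of 218 to 270 CPM at D5 and 4097 to 6896 CPM at D15. Within each of the 6 days this sum was highest in library a and lowest in library c, and the fibroblast sum was highest in library c. All 7 fibroblast markers rose too, from 200 to 239 CPM to 38759 to 47790 CPM, and all 5 epicardium markers, from 108 to 116 CPM to 1611 to 1813 CPM (Msln had no read at D5). Of the endothelium markers 4 of 5 rose (123 to 147 CPM at D5, 301 to 445 CPM at D15). All 7 cell division genes fell, from 2573 to 2736 CPM to 1298 to 1461 CPM, after 3080 to 3186 CPM at D6. Of 4 endoderm markers tested 2 rose and 2 fell, and the list summed to 13.8 to 15 CPM at D5 and 6.71 to 31.9 CPM at D15. Of 4 neural markers tested 1 rose and 3 fell (279.5 to 307 CPM at D5, 445 to 499 CPM at D15), and all 3 pluripotent cell markers tested fell (1090 to 1171 CPM at D5, 6.20 to 10.2 CPM at D15). The part of these cell types and of cell division in the changes of the cilium genes was not tested.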

How the data were processed

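The starting point was the authors' deposited table of raw read counts per gene. Libraries were made with a TruSeq RNA v2 kit and sequenced as single-end reads on a HiSeq4000, per the labels' protocols. Reads were aligned with STAR to mm10, per the submitters' processing notes. Which program counted the reads, on which gene models and with which strand setting, is not given in the sources used here. Of the 21 columns, 18 were matched to samples by day and 3 that match no sample were not used. Pairs of libraries of a day differed by more than counting noise (chi-square over degrees of freedom 2.206 to 9.232).

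The test was the quasi-likelihood F test of edgeR 4.0.16 (R 4.3.3) after filterByExpr (minimum count 10), and TMM scaling, with a mean per day, robust dispersions and 12 residual degrees of freedom, over all 13116 genes and 18 libraries, called at an adjusted p under 0.05. The biological coefficient of variation was 8.27%. Only the test of D15 against D5 was run on simulated counts, where few genes changed at D15, unlike the 78.0% called here. The other comparisons were not checked that way. Values in every library are given for the 12 members with the largest called change from D5 to D15, the 5 with the largest F across days, the called member of each role with the smallest p and any that goes against its role, and up to 3 for each step. Other members are given by their changes, and up to 3 called genes with the smallest p are named per further list. Members and lists were chosen with earlier results of these data known. Gene positions and exon overlaps are from GENCODE on mm10. Alternatives were other scalings (RLE, upper quartile), other filters, DESeq2 1.42.0, limma-voom (limma 3.58.1), fits of the compared days alone, a 2-fold threshold and leaving out each library.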

Additional observations from a re-analysis of the deposited data

How the results depend on the processing

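Over the 65 changes of single named members and their alternatives other than the 2-fold threshold, 1500 of 1625 values kept direction and call, 125 kept the direction but lost the call, and none reversed. For D15 against D5, 373 of 375 kept both. DESeq2 called 8 members from D6 to D7 in place of 14, and the cause was not tested. With a change of at least 2-fold also required, 8 members were called across days, 4 higher and 2 lower at D15 than D5, 0 higher and 0 lower at the cardiomyocyte stage, and 0 at each of the 5 steps. Under that threshold the counts over all genes fell to 6471 across days, 5189 for D15 against D5, 2923 for the stages, and 1159, 685, 709, 1212 and 2076 for the steps in order. When each library was left out, the members called ranged from 32 to 36 across days, 10 to 11 higher and 13 to 15 lower at D15, 12 to 15 higher and 15 to 17 lower at the cardiomyocyte stage, and, for the steps in order, 11 to 16, 8 to 14, 1 to 7, 1 to 4 and 12 to 18. In the same fits the counts over all genes were 11517 to 11800 across days, 9967 to 10405 for D15 against D5 and 10027 to 10153 for the stages. For the steps in order they were 3693 to 4711, 3237 to 4143, 2326 to 3350, 3155 to 4261 and 6011 to 6784. X-box matches numbered 5 with no mismatch and 22 with at most 2 (57.9% of the 38 members with a promoter, against 32.8% of all genes with one). No paired analysis was possible because the columns carry a running number and a day but no replicate number that the labels could match. The cardiomyocyte marker sum kept the order a, b, c from high to low on all 6 days. The fit did not model that order and treated the libraries of a day as independent. Members had as few as 23 reads in a library.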
